A study of Mus musculus with 20 samples.

Results

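Cerebellar mRNA was sequenced from WT/WT and homozygous 304Q/304Q mice at 2 and at 12 months of age, with 5 mice and so 5 libraries in each of the 4 groups. The study describes the sequenced mice as males only. The 304Q/304Q mice carry a hyper-expanded, interrupted CAACAG repeat knocked into both alleles of the endogenous mouse Atxn3 gene and descend from a single founder line, and the WT/WT mice carry wild-type alleles on both copies and were described as their littermates. Both genotypes were on the C57BL6/N background, and no animal carried a transgene or received a treatment. The sample labels name ataxin-2 for the wild-type alleles, which is at odds with their naming of ataxin-3 for the knock-in. Described here are 38 genes of the presynaptic terminal, among them synapsins, synaptotagmins, SV2 proteins, SNAREs, complexins, Munc13, RIM, Rab3 and active zone proteins, the SNARE disassembly machinery and the endocytic proteins dynamin 1, amphiphysin and synaptojanin 1. They were chosen by name, with earlier results of these data known, from the 29200 genes of the count table. Of the 38 members, 36 averaged 50 or more counts per library and were tested among 12153 genes. Stx1a and Cplx3 lay under that limit and are given as levels only.

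Synaptic vesicles are filled with transmitter, docked and primed at the active zone, and fused with the plasma membrane when calcium enters the terminal. Fusion is driven by the zippering of VAMP on the vesicle with syntaxin and SNAP-25 on the plasma membrane, complexins hold the assembled SNAREs ready, and synaptotagmins sense the calcium. NSF and the SNAP proteins then take the spent complexes apart, and dynamin, amphiphysin and synaptojanin retrieve the vesicle membrane. Isoforms of several of these proteins are divided between brain regions: synaptotagmin 2 and complexin 1 are known for fast, synchronous release in the hindbrain and cerebellum, and synaptotagmin 1 and complexin 2 for synapses of the forebrain.

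The start regions of 3 members are shown because Synpr and Sv2b were the members with the largest increases in 304Q/304Q mice at 12 months, and Syn1 is a textbook neuronal promoter whose gene was not called in the main edgeR fit of any comparison below. Some alternative fits called Syn1 higher with age. Each run is the 250 bases before the RefSeq start on GRCm38.p6, written 5′ to 3′ on the gene's own strand. Where several starts are listed, the outermost is shown. Capitals mark the letters of the motifs searched.
Synpr, chr14:13284530-13284779, plus strand: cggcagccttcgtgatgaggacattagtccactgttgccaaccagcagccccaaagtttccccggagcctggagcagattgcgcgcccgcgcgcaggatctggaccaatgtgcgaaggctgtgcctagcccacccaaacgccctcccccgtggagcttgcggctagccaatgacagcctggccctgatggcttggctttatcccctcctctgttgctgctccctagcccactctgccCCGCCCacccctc
Sv2b, chr7:75309263-75309512, minus strand: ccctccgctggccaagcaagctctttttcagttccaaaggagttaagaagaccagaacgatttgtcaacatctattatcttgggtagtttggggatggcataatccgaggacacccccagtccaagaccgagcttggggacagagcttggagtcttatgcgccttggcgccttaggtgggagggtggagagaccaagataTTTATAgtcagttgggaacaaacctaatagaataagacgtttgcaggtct
Syn1, chrX:20920919-20921168, minus strand: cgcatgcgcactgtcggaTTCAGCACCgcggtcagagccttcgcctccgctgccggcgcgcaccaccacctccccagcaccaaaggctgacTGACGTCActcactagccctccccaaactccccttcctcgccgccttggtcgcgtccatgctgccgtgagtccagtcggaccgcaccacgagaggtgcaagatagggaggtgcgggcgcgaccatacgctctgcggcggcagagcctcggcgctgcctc
In the Synpr window the capitals are a GC box (GGGCGG, here on the opposite strand) that begins 13 bases before the start. In the Sv2b window they are a TATA box (TATAAA) on the opposite strand, 50 bases before the start. The Syn1 window holds the cAMP response element (TGACGTCA) 159 bases and the first part of the neuron-restrictive RE1 motif (TTCAGCACC) 232 bases before the start. All motifs were searched on both strands and do not overlap each other in these windows. The reference held 44 start windows of 32 members, of which 24 windows from 22 genes held the GC box, against 32.7% of all 32851 windows of this length. The TATA box lay in 2 windows of 1 member, Sv2b, against 12.4% of all windows. The cAMP response element and the RE1 letters were each found in 1 member window, that of Syn1, against 1.55% and 0.301% of all windows.

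The libraries held between 11385380 and 27636687 counts. The granule cell genes Gabra6 and Cbln3 reached at least 232 and 398 CPM per kilobase (depth-scaled counts per kilobase of exons) in every library. Choroid plexus transcripts (Folr1 above 1 CPM per kilobase) were present in 6 libraries, namely replicate 3 of the young and replicates 1 and 3 of the old 304Q/304Q mice and replicates 1, 2 and 5 of the old WT/WT mice, and the counts of members below are also given without them. Replicate 5 of the 12-month 304Q/304Q mice carried skeletal muscle transcripts. The mRNA of Atxn3, the modified gene, had log2 fold changes of −0.54 (SE 0.115, adjusted p = 0.0916) in young and −0.13 (SE 0.117, adjusted p = 0.51) in old mice, and since its coding sequence is kept, its level does not check the genotype.

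The release machinery was abundant in all groups. Levels are given in CPM per kilobase, counts scaled to a common depth by TMM factors and divided by the length of the merged exons, so that genes can be set beside each other. Snap25, the plasma membrane SNARE, was the highest member with a mean level of 538.5 over the 20 libraries, followed by Cplx1 (447.2), Vamp2 (352.8), Cplx2 (291.5), Dnm1 (288.2) and Rab3a (252.6). Cplx2 and Dnm1 exchanged places between groups, and their gap in the mean was 0.0164 on the log2 scale. The next 5 members, Rph3a, Syt11, Syn1, Syp and Sv2a, lay between 106.4 and 162.2. The calcium sensors Syt2 (72.95) and Syt1 (65.59) stood close together, with Syt4 (64.28) and Syt7 (58.66) next to them. At the low end were Synpr (5.55), Sypl (3.29), Erc2 (2.87), Syn3 (1.01), Stx1a (0.905), Cplx3 (0.785) and Unc13b (0.629). Stx1a had a mean of 34.3 counts per library and Cplx3 of 32.45. The order depends on the exon length: Unc13b, the last in it, had a mean of 204.7 counts over 22746 bases of merged exons. Neighbours in this order often differed by less than their spread over libraries, as did Syt1 and Syt4, whose gap was 0.0291.

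**Figure D1:**
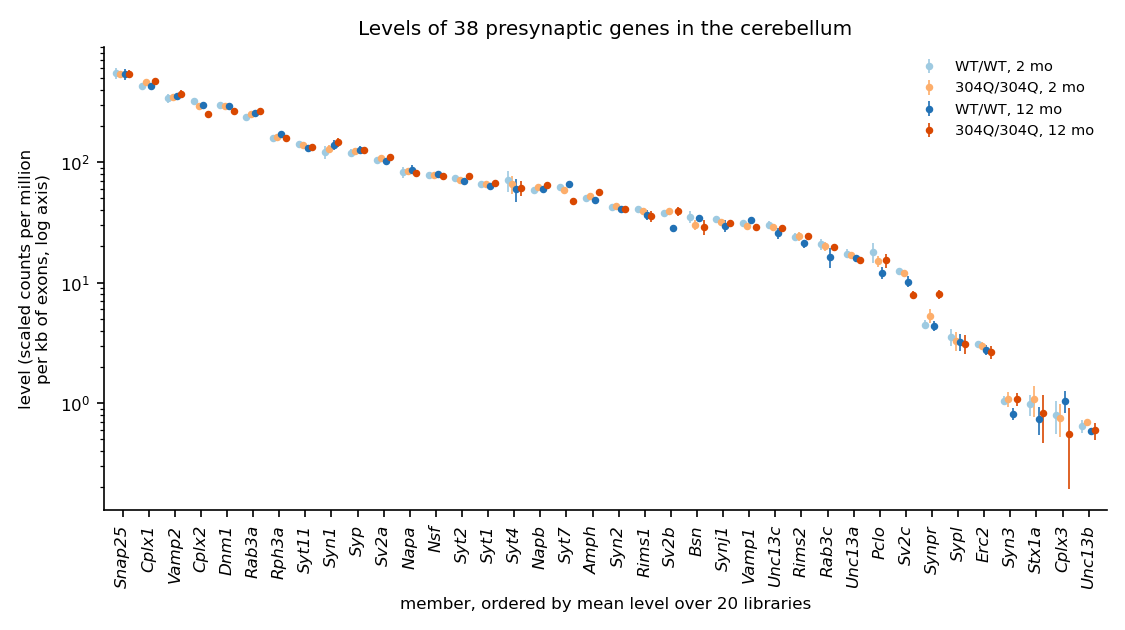
Mean level of each of the 38 presynaptic genes in the 4 groups (points) with its SD over 5 libraries (bars), in CPM per kilobase of exons on a log axis, ordered by the mean over 20 libraries. The members run from Snap25 (538.5) down to Unc13b (0.629). Synpr, Sv2c and Syt7 are among the members whose 12-month 304Q/304Q point lies apart from the other groups.

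At 12 months, 15 of the 36 tested members passed the test of 304Q/304Q against WT/WT mice, at an adjusted p of at most 0.05 in edgeR's quasi-likelihood test, where 12.5% of all genes tested did. Both directions were present. Higher in 304Q/304Q mice were 9 members (5.23% of all genes), namely Synpr, Sv2b, Syn3, Pclo, Amph, Rims2, Syt2, Cplx1 and Napb. Lower were 6 members (7.3% of all genes), namely Syt7, Sv2c, Bsn, Cplx2, Vamp1 and Dnm1. The differences were small. Synpr alone also reached the log2 fold change of 0.5 that the study set for DEGs, a threshold passed together with the adjusted p by 3.09% of all genes. The median log2 fold change over the 36 members was 0.03, and that over all genes −0.004. The 5 libraries of each genotype did not overlap for 9 members, against 8.94% of all genes. Most members are abundant, and abundant genes are called more often: among the 3448 genes that averaged 1000 or more counts, 19.2% passed the test, and of the 31 members in that range 13 did.

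**Figure D2:**
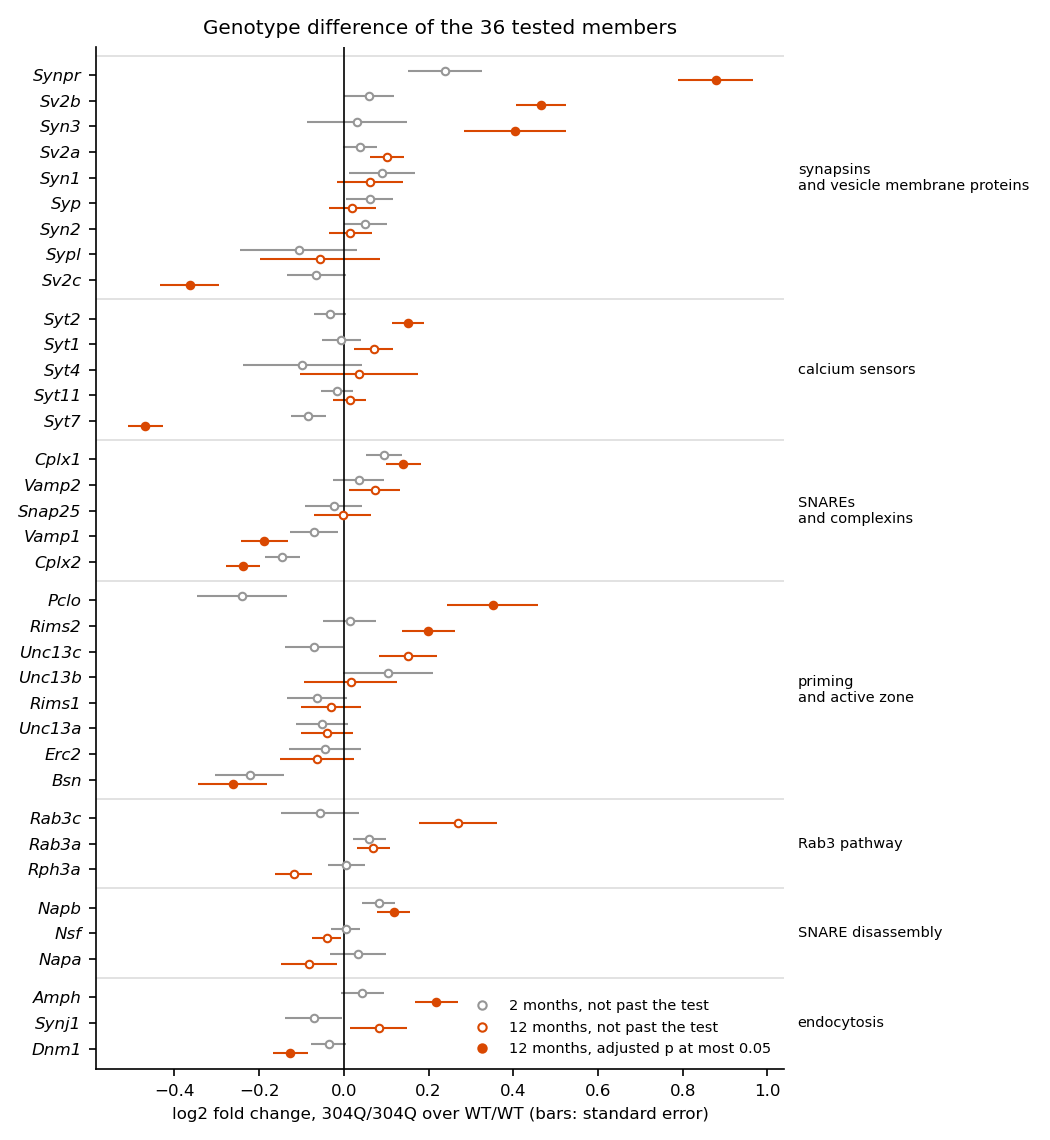
Log2 fold change of 304Q/304Q over WT/WT mice at 2 months (grey) and 12 months (orange) for the 36 tested members, grouped by role, with standard errors as bars and filled points for an adjusted p of at most 0.05. All grey points are open, and the filled orange points run from Syt7 (−0.47) to Synpr (0.88).

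The call of 7 of the 15 members (Synpr, Syt2, Syt7, Sv2b, Sv2c, Cplx2 and Amph) held when any single 12-month library was left out, and for Synpr, Syt7, Sv2b and Cplx2 also under every other alternative. The count fell to 7 without replicate 4 of the 12-month 304Q/304Q mice and reached 17 without replicate 1 of the 12-month WT/WT mice. Without the 6 libraries with choroid plexus transcripts, which leaves 3 304Q/304Q and 2 WT/WT libraries at 12 months, 9 members passed, 6 of them among the 15. With 3 surrogate variables in edgeR, the split of 9 higher and 6 lower members became 5 and 8.

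Markers of several cell types moved with the genotype at 12 months. Summed over the list, Purkinje cell markers reached 909 to 984 CPM per kilobase in 304Q/304Q and 1160 to 1330 in WT/WT libraries, and 5 of 6 (Pcp2, Calb1, Itpr1, Ppp1r17 and Gng13) fell. Inhibitory interneuron markers summed to 149 to 160 in 304Q/304Q and 174 to 187 in WT/WT libraries, with 3 of 6 lower (Gad1, Slc32a1 and Grm2). Oligodendrocyte markers summed to 508 to 696 in 304Q/304Q and 758 to 861 in WT/WT libraries, with Mbp and Mobp lower. None of these 3 lists overlapped between genotypes. The 8 granule cell markers, from the most numerous neurons of the cerebellum, summed to 1110 to 1260 in 304Q/304Q and 1120 to 1270 in WT/WT libraries and none passed the test in edgeR, with 2 at an unadjusted p under 0.05. Blood markers were lower in 4 of 5, and the unipolar brush cell marker Eomes, 1 of 4 astrocyte markers (Aldh1l1) and 1 of 3 markers of deep nuclei and brainstem neurons (Nefh) were lower. Both muscle genes tested were higher, but Myh4 had 0 counts in 17 of the 20 libraries. The muscle list summed to 0.418 to 62.8 in 304Q/304Q and 0.396 to 1.29 in WT/WT libraries, and replicate 5 of the 304Q/304Q mice carried muscle transcripts. No tested microglia, choroid plexus or forebrain marker passed (1, 0 and 0 at an unadjusted p under 0.05). In whole tissue, fewer cells of a type and less RNA per cell cannot be told apart. The part of these shifts in the members' differences was not tested.

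Among the synapsins and vesicle membrane proteins, 3 of 9 rose and 1 fell with the knock-in at 12 months. Synpr (ENSMUSG00000056296, chr14:13284780-13616340 on GRCm38) encodes synaptoporin, a relative of synaptophysin in the vesicle membrane. Its level in the 5 WT/WT libraries of 12 months was 4.67, 4.25, 3.76, 4.55 and 4.68. In the 12-month 304Q/304Q libraries it was 8.06, 7.45, 7.97, 9.24 and 7.505. The lowest 304Q/304Q library thus lay far above the highest WT/WT library, and replicate 4 was the highest. The means were 4.38 ± 0.386 and 8.04 ± 0.722 (SD, n = 5), a log2 fold change of 0.88 (1.84-fold, SE 0.0878, adjusted p = 2.39e-07). At 2 months the WT/WT libraries had 5.02, 4.03, 4.73, 4.22 and 4.41 and the 304Q/304Q libraries 4.88, 4.64, 5.35, 5.11 and 6.45. These groups overlapped, and the log2 fold change was 0.24 (SE 0.0879, adjusted p = 0.768).

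Sv2b (ENSMUSG00000053025, chr7:75114894-75309262), a transporter-like glycoprotein of the vesicle membrane, was at 29.6, 30.7, 25.1, 27.6 and 27.98 in the WT/WT and at 40.1, 39.3, 38.7, 42.7 and 33.9 in the 304Q/304Q libraries of 12 months. The groups did not overlap, and replicate 5 was the lowest 304Q/304Q library. The log2 fold change was 0.47 (1.38-fold, SE 0.0595, adjusted p = 7.49e-06). The 2-month libraries, at 36.99, 37.1, 38.96, 39.2 and 36.4 in WT/WT and 38.2, 37.6, 38.2, 39.6 and 42.9 in 304Q/304Q mice, lay close to the range of the old 304Q/304Q mice, so that the WT/WT mice of 12 months were the group apart. Its relative Sv2c (chr13:95954594-96132577) went the other way, with 11.4, 10.7, 9.58, 10.5 and 8.69 in WT/WT and 7.97, 8.02, 6.96, 8.19 and 8.41 in 304Q/304Q mice at 12 months. All 304Q/304Q libraries lay under all WT/WT libraries, by a narrow margin, and the log2 fold change was −0.36 (SE 0.0703, adjusted p = 0.001). Without the 6 libraries with choroid plexus transcripts Sv2c was no longer called (adjusted p = 0.0577). Sv2a, the most abundant SV2 gene, had a log2 fold change of 0.10 (adjusted p = 0.101).

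Syn3, the least expressed synapsin, was at 0.951, 0.869, 0.723, 0.793 and 0.757 in the WT/WT and at 1.18, 1.098, 0.852, 1.09 and 1.19 in the 304Q/304Q libraries of 12 months. Replicate 3 of the 304Q/304Q mice lay within the WT/WT range. A log2 fold change of 0.40 was fitted (SE 0.121, adjusted p = 0.0283), and the call was lost when any of WT/WT replicates 3, 4 and 5 or 304Q/304Q replicates 1, 2, 4 and 5 was left out (adjusted p up to 0.0814) and with surrogate variables (up to 0.155). Its exons overlap those of Timp3 on the other strand, a gene with a mean of 1120 counts against 174.7 for Syn3, and whether the counting used the strand is not given in the sources used here. Syt7 and Sv2b also have an antisense neighbour in their exons, with means of 1.3 and 6.25 counts. Antisense genes with mean counts of 1770, 2160, 659 and 541 overlap Syn1, Syn2, Unc13a and Rab3a. None of these members was called at 12 months in the main fit. The gene opposite Syn2, Timp4, was lower in 304Q/304Q mice at that age (log2 fold change −0.36, adjusted p = 1.24e-05 in edgeR). Syn1, Syn2, Syp and Sypl had log2 fold changes between −0.06 and 0.06 and did not pass.

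**Figure D3:**
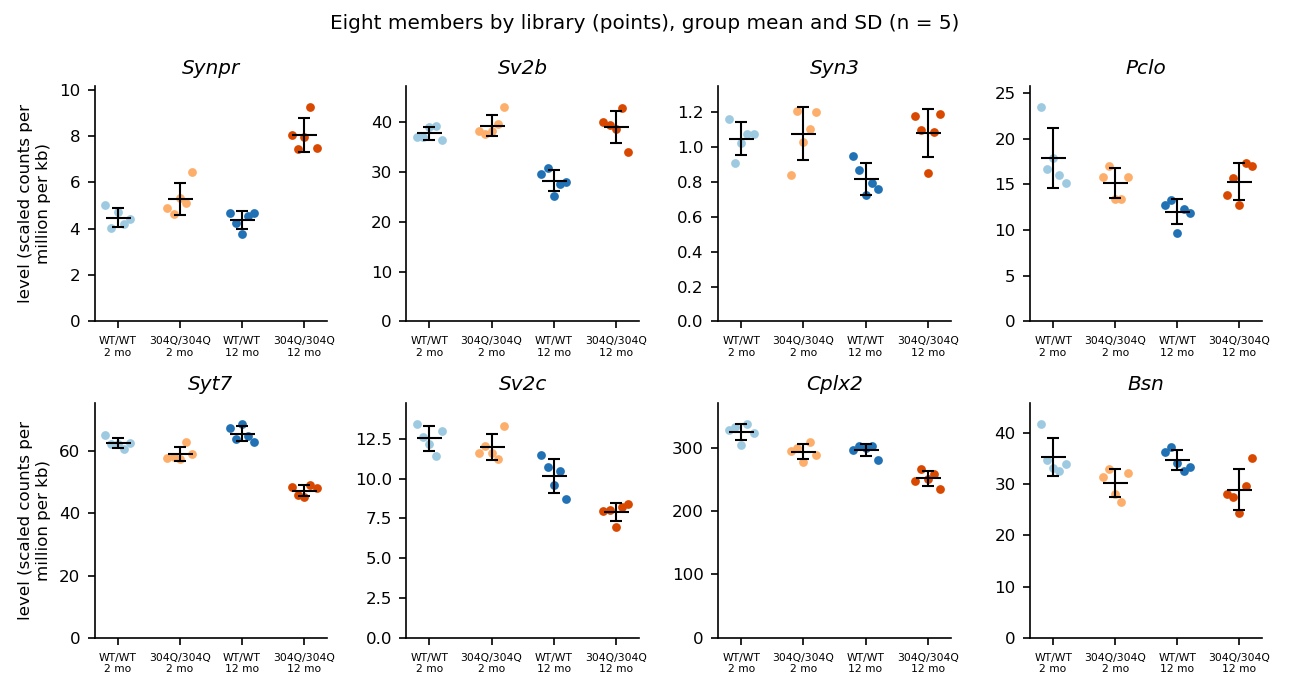
Level of 8 members in each of the 20 libraries (points), with the group mean (line) and SD (bars, n = 5), in CPM per kilobase on axes that start at 0. In the 304Q/304Q group of 12 months Synpr lies above and Syt7 below the other 3 groups, whereas Sv2b is lower in the 12-month WT/WT group than in the other groups and Pclo falls with age in WT/WT mice.

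Of the 5 synaptotagmins, 1 was lower and 1 higher. Syt7 (ENSMUSG00000024743, chr19:10389090-10453180), the slow, high-affinity sensor of facilitation and asynchronous release, had levels of 67.4, 63.9, 68.8, 64.9 and 62.97 in the 12-month WT/WT libraries. The 304Q/304Q libraries were at 48.4, 45.9, 45.3, 49.2 and 48.1. The gap between the groups was wider than the range of either, and no library of either lay near the other group. The means were 65.6 ± 2.44 and 47.4 ± 1.68 (SD, n = 5), a log2 fold change of −0.47 (0.722-fold, SE 0.0412, adjusted p = 3.03e-08), which ranked it at place 17 of the 12153 genes by p. At 2 months Syt7 was at 65.2, 62.2, 62.2, 60.7 and 62.8 in WT/WT and 57.9, 58.1, 57.4, 62.9 and 59.1 in 304Q/304Q mice. The highest 304Q/304Q library of that age lay inside the WT/WT range, and the log2 fold change was −0.08 (adjusted p = 0.883).

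Syt2, the fast sensor of hindbrain and cerebellar synapses, was at 71.03, 69.4, 66.3, 71.99 and 68.7 in the WT/WT and 75.3, 76.7, 76.5, 81.9 and 75.5 in the 304Q/304Q libraries of 12 months. The groups did not overlap, and the log2 fold change was 0.15 (1.11-fold, SE 0.038, adjusted p = 0.00911). Its call did not hold with surrogate variables in edgeR, without the filter on low counts and without the 6 libraries with choroid plexus transcripts (adjusted p up to 0.115). Syt1, its forebrain counterpart, had 61.5, 67, 61.5, 67.96 and 61.9 in the WT/WT and 67.4, 66.2, 60.4, 71.3 and 70.5 in the 304Q/304Q libraries, which overlapped widely (log2 fold change 0.07, SE 0.0457, adjusted p = 0.336). Syt11 (0.01) and Syt4 (0.04) did not pass. Syt4 spread widely, from 50.9 to 84.0 over the 20 libraries in both genotypes.

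Among the SNAREs and complexins, 1 of the 5 tested members was higher and 2 were lower. Cplx2 (ENSMUSG00000025867, chr13:54371349-54383917) was at 297, 303, 300.2, 303 and 280.2 in the WT/WT libraries of 12 months. In the 304Q/304Q libraries it was at 247, 266, 251, 258 and 234. The groups did not overlap, with a log2 fold change of −0.24 (0.848-fold, SE 0.0403, adjusted p = 0.000241). At 2 months it was at 327, 332, 304, 337 and 322 in WT/WT and 295, 299, 277, 308 and 288 in 304Q/304Q mice. The ranges overlapped through WT/WT replicate 3 and 304Q/304Q replicate 4, and the log2 fold change was −0.14 (SE 0.0403, unadjusted p = 0.00148, adjusted p = 0.397).

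Cplx1 (ENSMUSG00000033615, chr5:108518554-108550024) moved in the opposite direction. Its 12-month levels were 428, 407, 452, 418 and 438 in WT/WT and 465, 485, 498, 476 and 439 in 304Q/304Q mice, with replicate 5 of the 304Q/304Q mice inside the WT/WT range. The log2 fold change was 0.14 (SE 0.0415, adjusted p = 0.0259), and it was no longer called without WT/WT replicate 2 or 4 or 304Q/304Q replicate 2, 3 or 4 (adjusted p up to 0.0789), nor with surrogate variables (0.21 in edgeR) or without the 6 libraries with choroid plexus transcripts (0.375). With the GC and length trend removed it was larger, at 0.24 (adjusted p = 0.00146). At 2 months Cplx1 was at 423, 430.3, 450.0, 431 and 411 in WT/WT and 442, 476, 449, 479.8 and 446 in 304Q/304Q mice (log2 fold change 0.10, adjusted p = 0.86). Vamp1, the minor vesicle SNARE in these libraries, was at 32.4, 32.8, 35.1, 34.9 and 29.99 in WT/WT and 29.8, 30.4, 30.5, 27.3 and 27.1 in 304Q/304Q mice at 12 months. Replicate 5 of the WT/WT mice lay among the 304Q/304Q libraries. Vamp1 was lower by a log2 fold change of −0.19 (SE 0.0562, adjusted p = 0.0285), with the call lost without WT/WT replicate 3 or 4 or 304Q/304Q replicate 4 or 5 (adjusted p up to 0.0852). Without the 6 libraries with choroid plexus transcripts it was −0.31 (adjusted p = 0.0241). The major SNAREs Snap25 (log2 fold change −0.003) and Vamp2 (0.07) did not pass.

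Ratios of paired isoforms within a library do not depend on the scaling between libraries. The ratio of Cplx1 to Cplx2, per kilobase, was 1.29, 1.3, 1.48, 1.28 and 1.28 in the WT/WT and 1.5, 1.59, 1.62, 1.56 and 1.55 in the 304Q/304Q libraries of 2 months. At 12 months it was 1.44, 1.35, 1.51, 1.38 and 1.56 in WT/WT and 1.88, 1.82, 1.99, 1.84 and 1.87 in 304Q/304Q libraries. The genotypes overlapped at neither age, although the 2-month groups came within a small step of each other. The mean log2 ratio was higher in 304Q/304Q mice by 0.239 at 2 months and by 0.379 at 12 months, and higher at 12 than at 2 months by 0.267 in 304Q/304Q mice (2-sided exact permutation tests, each p = 0.00794, the smallest that 5 against 5 libraries allow, and 0.0317 after Benjamini-Hochberg adjustment over 12 comparisons). In WT/WT mice it was higher by 0.128 at 12 months (exact permutation p = 0.0635, adjusted 0.152). With the GC and length trend removed, the 2-month difference was 0.211 and its adjusted p 0.0635.

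The ratio of Syt2 to Syt1 lay near 1 in every library, between 1.04 and 1.27, so that the forebrain-type sensor was nearly as abundant per kilobase as the hindbrain-type sensor. Its group means were 1.12 and 1.1 at 2 months and 1.09 and 1.15 at 12 months for WT/WT and 304Q/304Q mice, and none of the 4 comparisons passed (exact permutation tests, adjusted p from 0.19 to 0.39). The log2 difference between genotypes at 12 months was 0.0827, of the order of the spread between libraries (SD 0.0615 for WT/WT and 0.0888 for 304Q/304Q mice, n = 5). Vamp1 was a small fraction of Vamp2. Their ratio at 12 months was 0.0882, 0.101, 0.0941, 0.104 and 0.0824 in WT/WT and 0.0893, 0.0815, 0.078, 0.0681 and 0.0764 in 304Q/304Q mice. Its log2 difference of −0.259 had an exact permutation p of 0.0317 and an adjusted p of 0.0952.

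**Figure D4:**
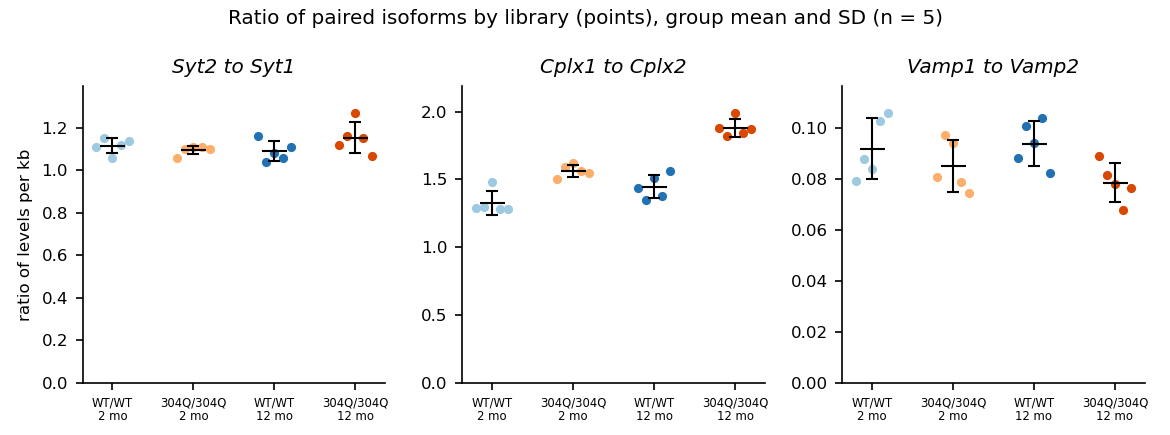
Ratio of the levels per kilobase of Syt2 to Syt1, Cplx1 to Cplx2 and Vamp1 to Vamp2 in each library (points), with group mean and SD (n = 5), on axes that start at 0. For Cplx1 to Cplx2 the 304Q/304Q libraries lie above the WT/WT libraries at both ages, reaching 1.99 at 12 months, while the other ratios overlap between genotypes.

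Of the 8 priming and active zone members, 2 rose and 1 fell with the knock-in at 12 months. Pclo (ENSMUSG00000061601, chr5:14514918-14863459) encodes Piccolo and Bsn encodes Bassoon, the giant scaffolds of the active zone, and they differed in opposite directions. Pclo was at 12.7, 13.3, 9.72, 12.3 and 11.9 in WT/WT and at 13.8, 15.7, 12.7, 17.4 and 16.97 in 304Q/304Q libraries of 12 months. Replicate 3 of the 304Q/304Q mice lay within the WT/WT range. For Pclo the log2 fold change was 0.35 (SE 0.108, adjusted p = 0.0326), and the call was lost without WT/WT replicate 3 or 5 or 304Q/304Q replicate 2, 4 or 5 (adjusted p up to 0.11). Bsn was at 36.2, 37.3, 34.2, 32.6 and 33.3 in WT/WT and at 28.02, 27.5, 24.4, 29.6 and 35.1 in 304Q/304Q libraries. Only replicate 5 of the 304Q/304Q mice, the library with muscle transcripts, reached the WT/WT range. For Bsn it was −0.26 (SE 0.0816, adjusted p = 0.0354), with the call lost without WT/WT replicate 2, 3 or 5 or 304Q/304Q replicate 1, 2, 3 or 4 (adjusted p up to 0.108). Without the 6 libraries with choroid plexus transcripts it was −0.12 for Bsn (adjusted p = 0.546) and 0.59 for Pclo (adjusted p = 0.0254).

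Rims2, a RIM protein that tethers vesicles and calcium channels, was at 23.1, 22.2, 19.6, 21.5 and 19.3 in WT/WT and at 24.4, 24.3, 22.99, 25.2 and 24.5 in 304Q/304Q mice. The groups nearly parted, with 304Q/304Q replicate 3 just under the highest WT/WT library. The log2 fold change was 0.20 (SE 0.0625, adjusted p = 0.0367), and the call was lost without WT/WT replicate 3, 4 or 5 or 304Q/304Q replicate 1, 2, 4 or 5 (adjusted p up to 0.114). With the replicate number as a block, Rims2 was not called either. Nor was it called with surrogate variables in edgeR or DESeq2, without the filter on low counts or without the 6 libraries with choroid plexus transcripts (adjusted p up to 0.114). The Munc13 genes Unc13a (log2 fold change −0.04), Unc13b (0.02) and Unc13c (0.15), with Rims1 (−0.03) and Erc2 (−0.06), did not pass.

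None of the 3 members of the Rab3 pathway passed at 12 months. Rab3c came nearest, at 21.1, 17.1, 13.4, 14.9 and 14.8 in WT/WT and 18.8, 18.2, 19.4, 20.97 and 20.7 in 304Q/304Q mice. Replicate 1 of the WT/WT mice stood above its group and above all 304Q/304Q libraries, and the log2 fold change was 0.27 (SE 0.0921, adjusted p = 0.0554). Without that library its adjusted p was 0.00148, and it passed in no other fit that left out a single 12-month library, but in 6 of 10 other fits, higher in each. Rab3a, the main Rab3 of brain, had a log2 fold change of 0.07 and its effector Rph3a of −0.12 (adjusted p = 0.0729). Of the SNARE disassembly proteins, Napb, the brain form of the SNAP adaptor, was at 60.1, 61.3, 59.5, 60.2 and 57.5 in WT/WT and at 66.7, 66.4, 62.1, 63.9 and 65 in 304Q/304Q mice. The groups did not overlap, but the log2 fold change of 0.12 was small (SE 0.0388, adjusted p = 0.047). Its call held in 1 of 10 fits that each left out a 12-month library, that without 304Q/304Q replicate 3 (adjusted p up to 0.125 in the others), and in 4 of 10 other fits, being lost with the replicate block among others. With the GC and length trend removed the log2 fold change of Napb was 0.05 (adjusted p = 0.467). Nsf and Napa did not pass.

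The endocytic proteins Amph and Dnm1, which act together in membrane fission, differed in opposite directions. Amph (ENSMUSG00000021314, chr13:18948205-19150921) was at 45.9, 50.8, 46.5, 50.7 and 48.5 in WT/WT and at 59.4, 57.2, 52.4, 56.1 and 56.95 in 304Q/304Q mice. The groups did not overlap, and the log2 fold change was 0.22 (1.16-fold, SE 0.0509, adjusted p = 0.00529). The call was lost without the 6 libraries with choroid plexus transcripts (adjusted p = 0.0907). Dnm1 was at 266, 299.6, 300.1, 299 and 294 in WT/WT and at 259.9, 271, 266, 270.0 and 269.9 in 304Q/304Q mice. Replicate 1 of the WT/WT mice lay in the 304Q/304Q range, and the other WT/WT libraries lay above it. The log2 fold change was −0.13 (SE 0.0416, adjusted p = 0.0478), with a call that held without WT/WT replicate 1 or 304Q/304Q replicate 5 and was lost without any other single 12-month library (adjusted p up to 0.114), and that held in 3 of 10 other fits. With the GC and length trend removed Dnm1 had −0.05 (adjusted p = 0.245). Synj1 did not pass (log2 fold change 0.08).

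At 2 months, no member passed the test in edgeR, where 0.0494% of all genes did, and the groups did not overlap for 0 members against 1.05% of all genes. An unadjusted p under 0.05 was met by 6 members (Synpr, Cplx1, Cplx2, Bsn, Pclo and Napb) and by 5.55% of all genes. Their log2 fold changes ran from −0.24 for Pclo to 0.24 for Synpr. All 6 were among the members called at 12 months, and the sign differed for Pclo alone. Cplx2 passed with 3 surrogate variables, in edgeR and in DESeq2, and DESeq2 without them called 0 members.

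In WT/WT mice, 6 members were lower at 12 than at 2 months (5.42% of all genes were lower) and none was higher (6.08% of all genes), out of 11.5% of all genes called in either direction. They were Pclo, Sv2b, Rab3c, Sv2c, Unc13c and Cplx2, with log2 fold changes of −0.57, −0.42, −0.36, −0.30, −0.23 and −0.13. Pclo fell from 23.4, 16.6, 17.9, 16.1 and 15.2 at 2 months to the 12-month values above, without overlap and with replicate 1 of the young mice far over the others (SE 0.108, adjusted p = 0.00166). Sv2b fell without overlap as well (SE 0.0595, adjusted p = 9.32e-05). Rab3c had been at 22.8, 21.7, 22.2, 17.9 and 19.6 (adjusted p = 0.0142). Unc13c, the Munc13 isoform of cerebellar granule cells, went from 33.6, 31.5, 29.6, 27.4 and 29.2 to 29.2, 28.03, 22.9, 23.98 and 24.6 (adjusted p = 0.0284). The ages overlapped through replicate 1 of the old mice for Rab3c and through replicates 1 and 2 for Unc13c. The calls of Unc13c and Cplx2 were lost in several leave-one-out fits (adjusted p up to 0.0996 and 0.112), that of Rab3c without WT/WT replicate 3 of 12 months (0.0548). With the GC and length trend removed, 1 member was higher and 6 were lower, and the log2 fold changes of Pclo (−0.36), Rab3c (−0.17) and Unc13c (−0.14, adjusted p = 0.0671) were smaller. The count was 13 without replicate 1 of the 12-month WT/WT mice and 3 without replicate 3.

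In 304Q/304Q mice, 4 members changed with age (7.26% of all genes did). Synpr was higher at 12 months (3.08% of all genes were) by a log2 fold change of 0.61 (SE 0.0865, adjusted p = 4.69e-05). Lower (4.18% of all genes) were Sv2c by −0.60 (SE 0.07, adjusted p = 3.59e-06), Syt7 by −0.32 (SE 0.0411, adjusted p = 1.49e-05) and Cplx2 by −0.22 (SE 0.0403, adjusted p = 0.000649). Sv2c went from 11.6, 12.1, 11.6, 11.2 and 13.3 at 2 months to between 6.97 and 8.41. In WT/WT mice it had gone from 13.4, 12.6, 12.2, 11.4 and 12.98 to between 8.69 and 11.45. Each of the 4 genes kept its call in every other fit and with each library of these groups left out. None of them overlapped between the ages in 304Q/304Q mice, but neither did Syt2, Rab3a and Dnm1, which did not pass. The share of all genes without overlap was not computed between ages. The age comparisons of the genotypes share no libraries with each other but share them with the genotype comparisons.

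Whether the genotype difference itself changed with age was tested as an interaction, which 4 members passed (1.95% of all genes). It was positive for Synpr, Pclo and Sv2b (0.642% of all genes) and negative for Syt7 (1.31% of all genes). The log2 fold change between genotypes was higher at 12 than at 2 months by 0.64 for Synpr (SE 0.124, adjusted p = 0.00511), by 0.59 for Pclo (SE 0.152, adjusted p = 0.0404) and by 0.41 for Sv2b (SE 0.0839, adjusted p = 0.00844). For Pclo its sign changed, from −0.24 at 2 months to 0.35 at 12 months. For Syt7 the interaction was −0.39 (SE 0.0581, adjusted p = 0.000535). The course behind these values differed. Synpr and Syt7 changed with age in 304Q/304Q mice, with log2 fold changes of −0.03 and 0.07 in WT/WT mice that did not pass. Pclo and Sv2b fell with age in WT/WT mice, with changes of 0.02 and −0.01 in 304Q/304Q mice that did not pass. Pclo was at 15.8, 17.1, 13.4, 13.4 and 15.9 in the young 304Q/304Q mice, close to their 12-month values. The interaction of Pclo was lost in 12 of 20 leave-one-out fits (adjusted p up to 0.0916), for instance without replicate 1 of the young WT/WT mice. Its call was also lost with 3 surrogate variables in DESeq2. Without the 6 libraries with choroid plexus transcripts, Synpr and Pclo were not called, and with the GC and length trend removed Synpr was not (0.39 in the latter fit, adjusted p up to 0.0699), which left 3 positive and 3 negative members there.

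A wider list of 73 other presynaptic genes, none of them a member, had 69 genes above the limit of counts. At 12 months 10 of these were higher in 304Q/304Q mice and 6 lower, a share of 23.2% against 12.5% of all genes (5.23% higher and 7.3% lower). Among genes that averaged 1000 or more counts 19.2% passed, and the wider list was not split by counts. At 2 months none passed in edgeR, where 0.0494% of all genes did, with 4 at an unadjusted p under 0.05. The 10 with the smallest adjusted p included the RIM relative Rims3 (log2 fold change 0.46, SE 0.0488, adjusted p = 5.62e-07) and Doc2b, a high-affinity calcium sensor (−0.41, SE 0.0553, adjusted p = 1.66e-05). Syt16 (1.30), the priming factor Cadps2 (0.28), the scaffold Cask (0.27) and Stxbp5 for tomosyn (0.25) were higher. The vesicular GABA transporter Slc32a1 (−0.31), which is also in the inhibitory interneuron list above, the clathrin light chain Cltb (−0.21) and Rab3b (−0.41) were lower. Syt16 had a mean level of only 0.277 in the WT/WT mice of that age, against 0.686 with the knock-in. Doc2b, Syt16, Slc32a1 and Rab3b overlap an annotated antisense gene. With age, WT/WT mice had 4 of the 69 higher and 10 lower, and 304Q/304Q mice had 2 higher and 8 lower, shares of 20.3% and 14.5% against 11.5% and 7.26% of all genes. The interaction was passed by Syt16 (1.55, adjusted p = 0.00416), Rims3 (0.36, adjusted p = 0.00428) and Doc2b (−0.31, adjusted p = 0.0364), or 4.35% of the list against 1.95% of all genes.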

How the data were processed

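Cerebellar poly(A) RNA of 20 mice was sequenced from stranded libraries. Reads were aligned by the authors with STAR (2.4.5b in the submitters' notes) to GRCm38 and assigned to genes with Rsubread, and they deposited whole-number read counts of 29200 Ensembl genes without normalization, and whether the counting used the strand is not given in the sources used here. Every column was matched to 1 mouse by the labels.

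From these counts, TMM scaling and a quasi-likelihood model with 4 group means were fitted with edgeR 4.0.16 in R 4.3.3 over the 12153 genes that averaged 50 or more counts (99.3% of all counts). Adjusted p-values are Benjamini-Hochberg values over all of these genes, and a call needs at most 0.05. The 304Q/304Q group, or the older group, comes first in each fold change. Levels were divided by the merged exon length of GENCODE M21, and promoter sequences come from RefSeq. Isoform ratios were tested with 2-sided exact permutation tests (scipy 1.17.1) of log2 counts with a pseudocount of 0.5. The members, the lists and the tests were chosen with earlier results of these data known. Named with each library's value were the isoforms Syt1, Syt2, Cplx1 and Cplx2 and each member past the test in any comparison, and of the wider list up to 10 genes per comparison. Some genes of the marker and wider lists are not reported here. The split at 1000 counts was chosen after seeing the data.

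Alternatives were DESeq2 1.42.0, its size factors, 3 surrogate variables (sva 3.50.0) in both tools, other filters, fits of only the groups compared, a replicate block, removal of trends with GC content and length, a pseudocount of 2, each library left out in turn and, added after seeing the data, removal of the 6 libraries with choroid plexus transcripts. The common biological coefficient of variation was 0.113, so that the spread between mice, more than counting, limits abundant members. All pairs of replicates differed by more than sampling noise, with chi-square values of 4.43 or more per degree of freedom. The fits were tested on simulated data.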

Additional observations from a re-analysis of the deposited data

Results flagged for a closer look

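In 12 of 144 groups of 5 libraries, 1 library stood apart from the other 4 in the level of a member, beyond the 95% limit of Dixon's test, which chance alone passes in about 1 of 20 groups. Replicate 1 of the 12-month WT/WT mice stood apart in 4 members, with Syt4 at 81.8 (others 50.9 to 58.0), Snap25 at 630.3 (495.6 to 524.6), Napa at 74.2 (87.7 to 93.5) and Dnm1 at 266.2 (293.8 to 300.1). Replicate 5 of that group had Cplx2 at 280.2 (296.7 to 302.8). In replicate 3 of the 12-month 304Q/304Q mice, Syn3 was at 0.852 (1.09 to 1.19), Sv2c at 6.97 (7.97 to 8.41) and Rab3a at 285.1 (259.6 to 265.7). Replicate 4 of that group had Syt2 at 81.9 (75.3 to 76.7). Among the young mice, Rims1 was at 34.8 in 304Q/304Q replicate 4 (39.6 to 41.5), Unc13a at 14.7 in WT/WT replicate 3 (17.9 to 18.3) and Bsn at 41.8 in WT/WT replicate 1 (32.6 to 34.8).

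The genotype difference changed between 2 and 12 months by 0.64 on the log2 scale for Synpr, −0.39 for Syt7, 0.41 for Sv2b and 0.59 for Pclo, each by the interaction test of the model.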

How the results depend on the processing

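The 29 calls of members over the 5 comparisons gave 0 changes of direction under any alternative. Of 286 values under an alternative setting 236 stayed past the test, and of 330 values with a library left out 254 did. The count at 12 months (15) was 9 without the filter on low counts and 9 without the 6 libraries with choroid plexus transcripts, and between 7 and 17 with a library left out. With 3 surrogate variables the split of 9 higher and 6 lower became 5 and 8 in edgeR and 6 and 8 in DESeq2, each gaining Rab3c (higher), Sypl and Syt4 (lower). At 2 months (0) the count was 1 with surrogate variables in either tool and 0 with each library left out. With age in WT/WT mice (6) it was 3 when only the 2 groups compared were fitted, and between 3 and 13 with a library left out. With age in 304Q/304Q mice (4) it was 8 with surrogate variables in DESeq2 and 4 to 5 with a library left out. For the interaction (4) it was 2 without the 6 libraries and 3 to 6 with a library left out. Adding the DEG threshold of 0.5 left 1 member at 12 months, 1 with age in WT/WT mice, 2 with age in 304Q/304Q mice and 2 in the interaction. The causes of these shifts were not tested.

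The replicate numbers do not pair the mice: deviations of same-numbered libraries from their group means correlated between −0.323 and 0.551 over 30 pairs (median −0.0404). With the replicate block, 13 members passed at 12 months (Napb and Rims2 were lost), and 0, 6, 4 and 4 at 2 months, with age in WT/WT, with age in 304Q/304Q mice and in the interaction.

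The log2 ratio of Cplx1 to Cplx2 differed between genotypes by 0.226 to 0.281 at 2 months and by 0.353 to 0.407 at 12 months with a library left out, and with age by 0.248 to 0.281 in 304Q/304Q and 0.0994 to 0.169 in WT/WT mice. With 4 against 5 libraries the smallest p is 0.0159 and most of these could not pass the adjustment, so that their loss says nothing of stability. With the GC and length trend removed the 2-month difference was 0.211, and that of Syt2 to Syt1 at 12 months 0.162. For Syt2 to Syt1 the differences ran from −0.0466 (without WT/WT replicate 3, adjusted p = 0.0381) to −0.0149 at 2 months, from 0.0482 (without 304Q/304Q replicate 3) to 0.108 at 12 months and from 0.0368 to 0.0971 with age in 304Q/304Q mice, and for Vamp1 to Vamp2 at 12 months from −0.306 to −0.208.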

Other observations

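Syt4, Snap25 and Vamp2 separated the young mice in a way that the genotype does not. At 2 months, Syt4 was at 77.4, 80.4 and 84.0 in WT/WT replicates 1, 2 and 3 and at 73.7 and 82.1 in 304Q/304Q replicates 4 and 5. The remaining 5 young libraries lay between 53.7 and 59.2. Snap25 was at 546.6 to 607.0 in the first 5 libraries and at 459.2 to 521.8 in the others. Vamp2 was at 354.7 to 373.7 and at 301.9 to 346.5. Replicate 1 of the 12-month WT/WT mice had the high values of Syt4 and Snap25 too. In the 12-month 304Q/304Q mice, replicates 2, 3 and 4 lay above replicates 1 and 5 in each of these genes. Syt4 was at 63.9, 66.9 and 70.7 against 52.5 and 51.6, and Snap25 at 562.7, 570.9 and 547.8 against 529.7 and 470.8. Vamp2 was at 373.2, 390.9 and 401.1 against 333.3 and 354.6. The higher values of Syt4 and Snap25 thus lay unevenly over the genotypes at 12 months. The pattern was noticed after the values were seen, and its source was not tested.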
